A study of Mus musculus with 6 samples.

Results

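The wild-type kidneys of this series were measured on 3 of its 6 arrays, chosen by the wild-type label in the sample titles. Each array was hybridised with RNA from whole kidneys of C57BL/6 mouse embryos at embryonic day 12.5, with no transgene and no treatment named. The labels call the 3 samples biological replicates and do not state the number of embryos in each, their litter or their sex. The other 3 arrays, from Ret-deficient kidneys of the same age, entered no value below. The chip carried 45101 probe sets, and 18193 genes had at least 1 probe set annotated to that gene alone. These genes were ranked by their mean signal over the 3 arrays, each gene by its brightest probe set.

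At this age the ureteric bud, an epithelial outgrowth of the nephric duct, has entered the metanephric mesenchyme and is branching. The mesenchyme secretes GDNF, which acts on the receptor RET and its co-receptor GFRA1 at the bud tips. Mesenchyme that caps the tips holds SIX2-positive nephron progenitors, which are induced by WNT9B from the bud to express WNT4 and turn into epithelium. Around them lie FOXD1-positive stroma, the mesenchyme of the future ureter, and ingrowing vessels, nerves and macrophages. Filtration and the transport segments of the nephron form later.

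A gene's signal was read against the brightest of 27 control probe sets for Bacillus subtilis transcripts on the same array. This control stood at 187 on array 1, 115 on array 2 and 97.2 on array 3. Signal is in the authors' MAS5 units, scaled so that the mean of each array, trimmed by 2% at each end, was 2500.01. Genes above the control on 3 of 3 arrays are called above it, genes over it on no array are called below it, and the rest are called mixed. Of the 18193 genes, 12283 (67.5%) were above, 3462 (19%) below and 2448 (13.5%) mixed. Probe sets differ in affinity, so the percentile of a gene, from 0 for the dimmest to 100 for the brightest, orders probe set brightness and not transcript number. A gene below the control was not distinguishable from background with its brightest probe set, which is no evidence that the transcript was missing. The share above was 51.2% among genes with 1 probe set and 84.1% among those with 2 or more.

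Array 1 stood apart from the others. Over the 12283 genes above the control, Pearson's r across genes was 0.965 between arrays 1 and 2, 0.964 between arrays 1 and 3, and 0.987 between arrays 2 and 3. Genes that differed at least 2-fold numbered 891 (7.25%), 908 (7.39%) and 213 (1.73%) for the same pairs. The ratio of the 3' to the 5' control probe set of Actb, a gauge of RNA or cDNA integrity, was 10.7 on array 1, 4.11 on array 2 and 4.37 on array 3. That of Gapdh was 4.91, 1.86 and 2.12. The part of RNA integrity in the differences between arrays was not tested.

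The arrays also differed in sex-linked transcripts. Xist, the RNA that silences an X chromosome in female cells, read 66.2, 23417 and 22638 on arrays 1, 2 and 3. The Y-linked gene Eif2s3y read 12302, 34.9 and 54, Kdm5d read 4049, 4.9 and 60.8, and Uty read 1108, 3.5 and 4.9. Xist was thus high on arrays 2 and 3 and below the control on array 1, and the 3 Y-linked genes were above the control on array 1 alone. Other values that differ between array 1 and the rest cannot be told apart from this difference.

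The brightest genes of the wild-type kidney included genes of translation, embryonic blood and growth. Rpl35, a ribosomal protein gene, ranked highest with 79947, 69386 and 79582 on arrays 1, 2 and 3, and 19 of the 50 brightest genes encoded ribosomal proteins. Among the 20 brightest were also Hbb-y, an embryonic beta globin, Tmsb10, an actin-binding peptide, Lgals1, a galectin, and Vim, the mesenchymal intermediate filament. All 19 measured cell cycle genes were above the control and 13 of them lay in the top decile of all genes, where 10% of genes lie by construction. Pcna, the DNA polymerase clamp, read 38683, 43647 and 44890.2, and Mki67, the proliferation antigen, read 32538, 18120.2 and 18791. Of 15 imprinted genes with roles in growth, 13 were above and 10 lay in the top decile, at a median percentile of 97.2. Igf2, the fetal growth factor, read 53589, 53097 and 57408 with its brightest probe set, and these values differed little between arrays. Its second probe set read 7086, 5078 and 4182, highest on array 1. Cdkn1c, a maternally expressed inhibitor of the cell cycle, read 21012, 33347 and 36977, with array 1 the lowest.

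Brighter genes mostly varied less between arrays. Their share above the control was also higher, but by construction, since the call and the mean use the same signals. Among genes sorted into 10 deciles by mean signal, from 1 for the dimmest to 10 for the brightest, the share above the control was 0% in deciles 1 and 2, 3.41% in decile 3, 73.2% in decile 4 and 98.7% in decile 5. The spread between arrays was taken as the SD of log2(signal + 16). Its median was 0.60 in decile 1, 0.94 in decile 2, 0.48 in decile 4 and 0.14 in decile 10. The median ratio of a gene's highest to its lowest array was 1.97 in decile 4 and 1.20 in the brightest. Genes with clone names were left out of the lists of extreme genes, here and below. Among the other genes above the control, the 10 with the largest SD were Actc1, Acta2, Nfia, B3galt6, Alox12, Itgb3, Upk3b, Cavin2, Agtr2 and Pdia4. Over all genes above the control the median SD was 0.23, and it was 0.12 without array 1. Of the 1820 genes in the top decile, 1530 (84.1%) were in the top decile of every array. Xist was the 1 gene of the top decile that was not above the control on all arrays.

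**Figure D1:**
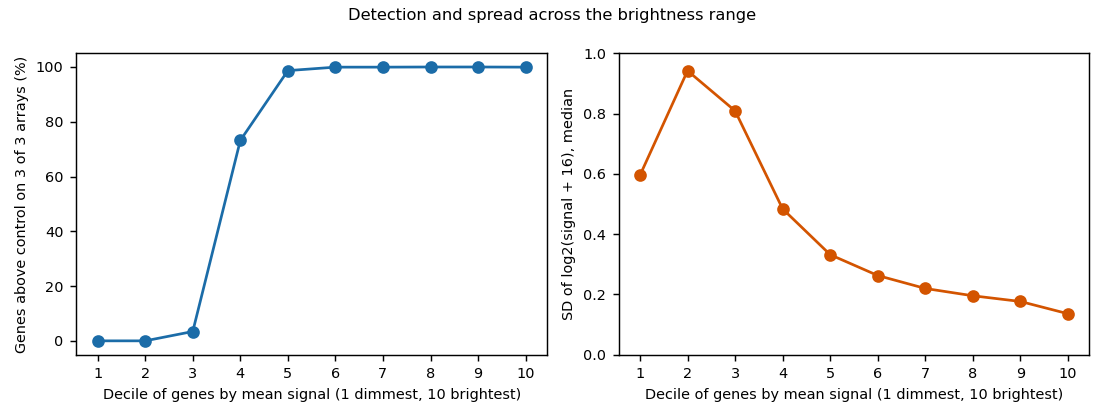
Left, the percentage of genes above the brightest Bacillus control on 3 of 3 wild-type arrays, by decile of genes from the dimmest (1) to the brightest (10). Right, the median over genes of the SD of log2(signal + 16) across the 3 arrays. The share above the control climbs from 3.41% in decile 3 to 98.7% in decile 5. The SD is 0.60 in decile 1 and falls from 0.94 in decile 2 to 0.14 in decile 10.

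Bright and dim genes differed in a property that the ranking did not use, the CpG content of their promoters. RefSeq promoter sequences, from 250 bases before to 50 bases after the transcript start on mouse build GRCm38.p6, were matched by symbol to 12311 of 14542 protein-coding genes (84.7%) on 18 chromosomes. In these 300 bases the ratio of observed to expected CG dinucleotides had a median of 0.752 for genes above the control, 0.381 for mixed genes and 0.237 for genes below it. It was 0.833 in the top decile. Where a gene had several starts, its ratio was the mean over them. A ratio of at least 0.6 was found in 71.6% of genes above the control, 29.6% of mixed genes and 14.3% of genes below. TATAAA, searched on both strands, occurred in 8.41%, 15.5% and 21.7% of these classes in that order. The share was 11.3% of all 12311 matched genes and 13.6% of all 32851 promoters, which include those of genes outside the ranking. A gene counted for a motif if the promoter of any of its starts held it. The share of all promoters counts each promoter singly, so it is an unlike measure. GGGCGG, which contains a CG and so follows the CpG content, occurred in 69.5%, 42.9% and 24.1%, against 59.2% of the matched genes and 35.7% of all promoters. CCAAT occurred in 43.1%, 39.7% and 40.3%, against 42.3% of the matched genes and 37.4% of all promoters. These values describe the sequences and are no test of a factor's binding.

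The 250 bases before the start of 4 genes show the range, with CG dinucleotides and TATAAA in capitals. Six2 (chr17:85688255-85688504, minus strand) and Wnt9b (chr11:103749822-103750071, minus strand) act on the nephron progenitors and were above the control. Hba-x (chr11:32276350-32276599, plus strand) encodes an embryonic alpha globin and was among the brightest genes. Csn2 (chr5:87699426-87699675, minus strand) encodes a milk casein and was below the control.
Six2: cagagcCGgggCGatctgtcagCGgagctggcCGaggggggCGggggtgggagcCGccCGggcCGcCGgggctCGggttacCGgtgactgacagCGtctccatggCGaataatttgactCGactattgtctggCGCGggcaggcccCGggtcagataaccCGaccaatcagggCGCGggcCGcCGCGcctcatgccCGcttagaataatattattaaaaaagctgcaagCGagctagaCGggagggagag
Wnt9b: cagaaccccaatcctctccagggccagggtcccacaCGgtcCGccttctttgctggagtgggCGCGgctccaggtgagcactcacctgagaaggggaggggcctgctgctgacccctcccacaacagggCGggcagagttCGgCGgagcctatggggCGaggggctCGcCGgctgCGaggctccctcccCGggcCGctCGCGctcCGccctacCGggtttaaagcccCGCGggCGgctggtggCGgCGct
Hba-x: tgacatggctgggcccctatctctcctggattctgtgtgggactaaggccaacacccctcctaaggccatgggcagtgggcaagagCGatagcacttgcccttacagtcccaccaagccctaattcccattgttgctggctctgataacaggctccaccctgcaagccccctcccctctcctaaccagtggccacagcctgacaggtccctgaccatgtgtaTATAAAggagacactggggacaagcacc
Csn2: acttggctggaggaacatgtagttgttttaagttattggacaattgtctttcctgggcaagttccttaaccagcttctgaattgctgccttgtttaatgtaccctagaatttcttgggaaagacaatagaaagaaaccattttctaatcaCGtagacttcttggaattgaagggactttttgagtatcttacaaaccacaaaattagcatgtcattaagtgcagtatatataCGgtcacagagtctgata

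The 250 bases held 26 CG dinucleotides for Six2 and 22 for Wnt9b. They held 1 for Hba-x and 2 for Csn2. Over the full 300 bases the CpG ratio was 1.13 for Six2, 0.753 for Wnt9b, 0.0853 for Hba-x and 0.179 for Csn2. Hba-x, at percentile 99.6, therefore had a lower ratio than Csn2, which read 51.1, 31 and 56.7, so the trend over all genes did not hold for each gene. Hba-x was the only promoter of these 4 with a TATAAA in these bases.

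**Figure D2:**
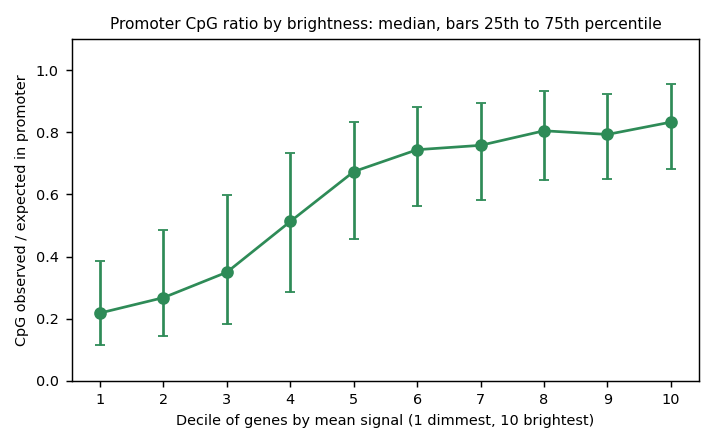
Ratio of observed to expected CG dinucleotides in the 300-base promoter window, by decile of genes from the dimmest (1) to the brightest (10) mean wild-type signal. Points are medians over the protein-coding genes with a promoter and bars run from the 25th to the 75th percentile. The median is 0.218 in the dimmest decile and 0.833 in the brightest, and the bars of neighbouring deciles overlap.

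Regulators, ligands, receptors and matrix genes were described from whole families and short role lists, 525 measured genes in all, of which 376 (71.6%) were above the control. Receptors had 108 of 132 above (81.8%) and regulators 107 of 136 (78.7%). Matrix genes had 89 of 127 above (70.1%), and ligands 72 of 130 (55.4%), against the 67.5% of all genes. Ligands below the control numbered 35, against 9 receptors. The median percentile was 60.6 for receptors, 60.7 for regulators, 47.1 for matrix genes and 36.6 for ligands. Counting only families taken whole, 91 of 113 receptors (80.5%) and 59 of 111 ligands (53.2%) were above. Of 818 listed genes in all lists, 61 were not matched to a probe set of their own and were not analysed here.

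**Figure D3:**
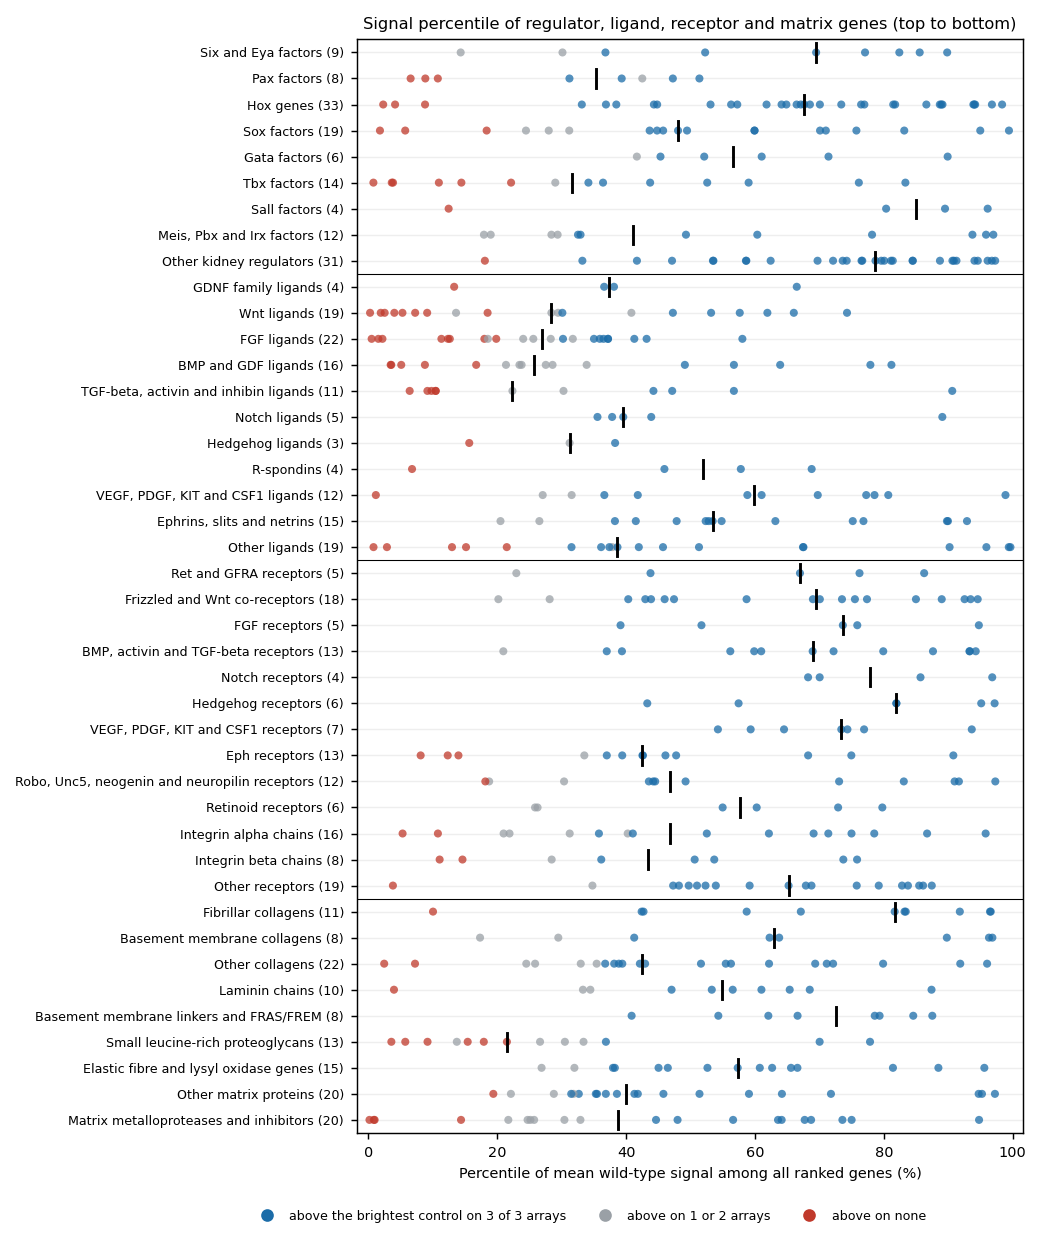
Each point is a gene, placed by the percentile of its mean signal over the 3 wild-type arrays among all 18193 ranked genes, with the number of measured genes of each list in parentheses. Blue genes were above the brightest Bacillus control on 3 of 3 arrays, grey on 1 or 2, red on none, and black bars are list medians. The lists run from regulators at the top through ligands and receptors to matrix genes, with more red points among the ligands (35) than in any other of the 4 classes.

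Of the factors that specify the kidney mesenchyme, Wt1, Sall1, Eya1, Six2, Osr1, Cited1 and Pax8 were above the control on every array. Wt1, the zinc finger factor of the mesenchyme and later podocyte, read 16414, 17261 and 13977 on arrays 1, 2 and 3. Sall1, needed for bud invasion, read 15859, 15221 and 12116, and Eya1, a phosphatase and co-activator that acts upstream of Gdnf, read 9981, 13023 and 10186. Six2, which maintains the progenitors, read 991, 1830.1 and 1232, with its lowest value on array 1. Its signal was 1351 ± 432 (SD, n = 3), at percentile 52.3, near the middle of the ranking. Osr1, an early marker of the kidney lineage, read 1836, 1872 and 2687, and Cited1, a co-regulator of the least committed progenitors, read 460.0, 503 and 578. Pax8, a paired box factor of the nephric lineage, read 826, 1136 and 662, while another of its probe sets was below the control. All 3 were above the control, and Cited1 was the dimmest at percentile 41.7.

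Of the 33 measured Hox genes, which set position along the body axis, 30 were above the control. The 9 genes of groups 9 to 11, the set that the metanephros is known to use, were all above and 5 of them lay in the top decile, at a median percentile of 93.9. Hoxd9 read 39223, 37733 and 33812 and Hoxc10 read 29389, 29512 and 26487 on arrays 1, 2 and 3, and both were steady across arrays. Hoxa11 read 3506, 3412 and 4429 and Hoxd11 read 2424, 3243 and 3447, a pair whose joint loss is known to leave very small kidneys. Groups 1 to 8 had 18 of 19 genes above, at a median percentile of 67.1. The exception was Hoxb7, whose promoter is widely used to mark the ureteric bud, at 23.8, 21.5 and 18.6, below the control on every array. Groups 12 and 13 had 3 of 5 above. Hoxd13 read 13927, 11705 and 15737 with its brightest probe set and 19.9, 17.3 and 127 with another, so its level is uncertain.

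Sox factors lay between percentiles 1.81 and 99.4. Sox11, a factor of progenitors in many organs, read 54647, 45194 and 50174, and its other 5 probe sets were also above the control. Sox9, which acts in the bud tip, read 9320.1, 9097 and 10041 with its brightest probe set. Another read 764, 4529 and 4816, lowest on array 1, and a further probe set was above the control on 2 arrays. The related Sox8 read 242, 1068 and 951, lowest on array 1. Of 19 Sox genes, 13 (68.4%) were above, near the 67.5% of all genes, and 3, Sox1, Sox14 and Sox30, below. The stromal factor Foxd1 read 4633, 7292 and 7315 and Foxc2, a factor of mesenchyme and glomerulus, read 31362, 26764 and 27063. Tcf21, a helix-loop-helix factor of stroma and podocyte precursors, read 3142, 8507 and 7736, with its lowest value on array 1. Nr2f2, an orphan nuclear receptor of mesenchyme, read 32179, 29457 and 30555 with its brightest probe set, among the steadiest of the regulators. Its other probe sets were also above the control but varied more and in differing directions. One read 15249, 19995 and 21446, and another 3332, 1801 and 1160.

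Some regulator families were mostly dim. Of 14 Tbx genes, 7 were above, among them Tbx18, a factor of ureter mesenchyme, at 6496, 6283 and 6082. Of 8 Pax genes, 4 were above. Pax3, a factor of muscle and neural crest, read 818, 239 and 163, and Pax9, of pharyngeal and skeletal tissue, read 2162, 568 and 1052. Both were highest on array 1. Hnf4a, a factor of the later proximal tubule, was below the control with all 4 of its probe sets. At a gauge of 2 times the control, 2 Pax genes were above.

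Gdnf, Ret and Gfra1, the ligand and receptor genes of bud outgrowth, were above the control on every array. Ret read 13315, 11042 and 10193 on arrays 1, 2 and 3, a signal of 11517 ± 1614 (SD, n = 3) at percentile 86.3, and its second probe set read 684, 684 and 527. Gfra1 read 2861, 4453 and 3569.5. Gdnf read 2777, 4442 and 3317, lowest on array 1 where Ret was highest. Of the RET targets in bud tips, Etv5, an ETS factor, read 6229, 13417 and 11265, and its relative Etv4 read 1194, 1839 and 1403. Wnt11, a tip ligand, read 80.7, 673 and 658. Etv5 and Etv4 were lowest on array 1, and Wnt11 was below the control there and above it on the other arrays.

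Of 19 measured Wnt genes, 7 were above the control, 4 mixed and 8 below. Wnt5b, a non-canonical ligand, was the highest of the family in percentile, at 74.3, with 4159, 5752 and 7058. Wnt9b, the inducing signal of the bud, read 2216, 3049 and 2621, and Wnt4, its target in the induced mesenchyme, read 1321, 2359.7 and 2367. Both were lowest on array 1. Wnt7b, which the ureteric stalk uses later to shape the medulla, read 19.6, 37.4 and 6.2, and its second probe set was also below the control. Wnt1, Wnt2b, Wnt3, Wnt7a, Wnt8a, Wnt10a and Wnt16 made up the other 7 below. Their receptors and co-receptors had 16 of 18 above and none below. Fzd2 read 23949, 20889.7 and 21362 and Fzd7 read 16714, 23191 and 19936, both in the top decile, and the co-receptor Lrp6 read 20517, 16834 and 17660.4. Of the R-spondins, which raise Wnt signalling, Rspo3 read 4259, 3828 and 4129.6 and Rspo1, found in nephron progenitors, read 1605, 2435 and 2055.

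FGF ligands were mostly dim, while their receptors were above the control. Of 22 ligands, 9 were above the control and 8 below, and at a gauge of 2 times the control 3 were above. Fgf9, which keeps nephron progenitors proliferating, read 383, 627 and 473, and Fgf20, its partner there, read 238, 411 and 219.5. Fgf10, a bud growth signal, read 304, 372 and 308. Fgf8, needed by the induced nephron, read 20.8, 10 and 8.1, and Fgf7, a stromal ligand, read 140.4, 77.5 and 11.2. These ligands lay within a few times the control or under it, which limits their precision. All 5 receptors were above. Fgfr2, the main receptor of the bud, read 18747, 26391 and 22178, and Fgfr1, the mesenchymal receptor, read 5151, 5903 and 5314.

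Among BMP and GDF ligands 5 of 16 were above the control. Bmp7, a survival factor of nephron progenitors, read 5646, 9882 and 9584, lowest on array 1. Bmp4, a signal of the mesenchyme around the ureter, read 6519.7, 6417 and 7912. Of 11 TGF-beta, activin and inhibin genes 4 were above. Tgfb2 was the brightest of them, at 13199, 14474 and 19045, and its other 3 probe sets were above too. Of 13 receptors of this superfamily 12 were above, and the type 2 receptor Bmpr2 read 23743, 17109 and 18228.

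Notch and hedgehog receptors were above the control throughout. All 4 Notch receptors were above the control, and Notch2, the receptor needed for proximal nephron fates, read 29734, 27651 and 28667. All 5 Notch ligands were above, but 3 at 2 times the control. Jag1 read 16094, 12182 and 13546, and Dll1, a ligand of the renal vesicle, read 440.1, 362 and 247. Of the hedgehog ligands, Shh, made by the ureter epithelium, read 32.6, 448 and 91.2, above the control on array 2 alone. Dhh was above on every array, but not at 2 times the control, and Ihh was below. All 6 hedgehog receptors and co-receptors were above. Ptch1, a receptor that is also a target of the pathway, read 37774, 26333 and 26550.4. Smo, the signal transducer, read 8773, 8693 and 8848 with its brightest probe set, among the steadiest values of all members. Another Smo probe set read 2129, 2843 and 2597, and a further one was above the control on array 1 alone. The pathway factor Gli3 read 30482, 23300.1 and 24239.6 and Gli1, a target, read 1681, 2215 and 2521.

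Growth factor ligands of vessels and mesenchyme included the brightest ligands. Igf2 stood at percentile 99.6, and Mdk, the heparin-binding factor midkine, read 45731, 48996 and 53912. Pdgfc read 42289, 44651 and 39997, at percentile 98.9, and its second probe set was also above the control. Its receptor Pdgfra read 23743, 17243 and 19525. Cxcl12, a chemokine of the stroma, read 22621, 24282 and 29282, and its receptors Cxcr4 and Ackr3 read 9974, 14155 and 13328 and 9925, 11866 and 12441. Vegfa, the endothelial growth factor, read 2331, 2391 and 1764. Slit2, a guidance ligand that restricts the site of bud outgrowth, read 22288, 16318 and 18112, and its receptor Robo2 read 607, 844 and 374. Nrp1, a receptor for semaphorins and VEGF, read 35107, 27593 and 29855.

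Receptors for angiotensin, retinoids and epidermal growth factors ranged from below the control to bright. Agtr2, the angiotensin receptor of fetal mesenchyme, read 422, 2376 and 3829, with array 1 far under the others. Agt, the angiotensin precursor, read 34.8, 7.8 and 9.4, below the control. Egfr was mixed with its brightest probe set, at 21.4, 341 and 418, while another read 200, 191 and 233 and was above on all arrays. It was the only member not above the control that had another probe set above it on 3 of 3 arrays. Erbb3 read 3479, 3326 and 2931, and Erbb4 read 37.7, 14.1 and 9, below. Of 6 retinoid receptors 4 (66.7%) were above, near the 67.5% of all genes. Rara was mixed at 56.8, 252 and 69.4, and Rarb, found in stroma, read 3168, 2029 and 1915. Aldh1a2, the enzyme that makes retinoic acid in stroma, read 32599, 31630.4 and 32995, at percentile 97.6.

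Integrin chains paired with known kidney ligands were above the control. Itga8, the receptor chain of the mesenchyme, read 4501, 5677 and 4163, and its ligand Npnt, nephronectin, from the bud, read 5637, 7032 and 8919. Itgb1, the partner chain, read 4782, 6383 and 7347. Of 16 alpha chains 10 (62.5%) were above, and of 8 beta chains 5 (62.5%), near the 67.5% of all genes. Itgb3, a chain of platelets and mesenchyme, read 3632, 445 and 396, high on array 1 alone, and its second probe set read 189, 151 and 16.2. Of 13 Eph receptors 9 (69.2%) were above, also near that share.

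Collagens of the interstitium and the basement membrane included some of the brightest matrix genes. Fibrillar collagens had 10 of 11 above, and Col1a1 and Col3a1 read 33460.2, 24227 and 24424 and 31204, 23019 and 29039. The basement membrane collagens Col4a1 and Col4a2 read 38154, 21936 and 26132 and 31381, 22594 and 26422, highest on array 1. In contrast Col4a3, a chain of the mature glomerular basement membrane, read 203, 3.5 and 11.1, and Col4a4, its partner, read 268, 62.6 and 169. Both were mixed. Of 10 laminin chains 7 (70%) were above, near the 67.5% of all genes. They included Lamb1 at 17773, 10479 and 9120.3 and Lama1, the early epithelial chain, at 4569, 2951 and 2308. All 8 linkers and FRAS/FREM genes were above. Frem1, a protein of the FRAS complex, which is needed for bud outgrowth, read 5476, 8444 and 8587.

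Small leucine-rich proteoglycans, which coat collagen fibrils, were the dimmest matrix list. Of 13 genes, 3 were above the control, and 5 when array 2 was left out. Their median percentile was 21.5. Dcn, decorin, read 306, 312 and 333, steady across arrays at a low level, while another of its probe sets was below the control. Bgn, biglycan, read 6338, 2747 and 4219.7. Fmod, fibromodulin, read 6830.0, 2599 and 11338, lowest on array 2, as with each of its other 5 probe sets. Elastic fibre genes had 13 of 15 above, led by the fetal fibrillin Fbn2 at 27009, 21677 and 24374. Sparc, Fn1 and Vcan, matrix proteins of growing mesenchyme, were in the top decile, and Sparc read 33011, 26953 and 31466. Of 20 metalloproteases and inhibitors, 10 were above, and Mmp2, a gelatinase, read 24687, 19952 and 22836. Col9a1, best known from cartilage, read 25025, 24341 and 27818, at percentile 96, and its second probe set was above the control too.

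Lists of markers for the cell types of the young kidney had 122 of 140 measured genes above the control (87.1%), against 67.5% of all genes. All 16 nephron progenitor markers, all 12 ureter mesenchyme markers and all 14 endothelial markers were above. Stroma had 14 of 15 above, ureteric epithelium 16 of 18, bud tip 8 of 10 and induced nephron 15 of 18. In whole kidneys, fewer cells of a type and less RNA per cell cannot be told apart. In the ureteric epithelium, Calb1, a calcium-binding protein, read 21363, 29916 and 28457, and Cdh1, E-cadherin, read 3715, 5361 and 4285. In the induced nephron, Lhx1, a factor of the renal vesicle, read 2247, 3142 and 2797. Of the other 18 markers, 14 were mixed and 4 were below the control, namely Slco4c1, Wnt7b, Fgf8 and Hba-a1. Defining markers of the bud, the progenitors and the stroma were thus readable, as the tissue label implies.

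Markers of blood, immune and nerve cells were read too. Of 10 erythroid genes 8 (80%) were above, against 67.5% of all genes. The embryonic globins Hbb-y, Hbb-bh1 and Hba-x read 79963, 66032 and 65976, 59397, 50097 and 65917 and 57747, 47563 and 53446 on arrays 1, 2 and 3. Hba-a1 was below the control with the only probe set of its own, at 16.9, 15.7 and 4.2, whereas a probe set shared by Hba-a1 and Hba-a2 read 51197, 41481 and 59889. Klf1, the erythroid zinc finger factor, read 968, 698 and 2186, highest on array 3. Macrophage markers had 10 of 14 above (71.4%), near the share of all genes, and C1qb, a complement chain, read 14880.3, 11346 and 18415. Neural crest, glial and neuronal markers had 9 of 13 above (69.2%), also near that share. Sox10, a glial factor, read 6971, 3770.1 and 3362, highest on array 1. Endothelial Kdr and Tek, receptors of VEGF and angiopoietin, read 3668, 1461 and 1559.6 and 14651, 6695 and 8202, also highest on array 1.

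**Figure D4:**
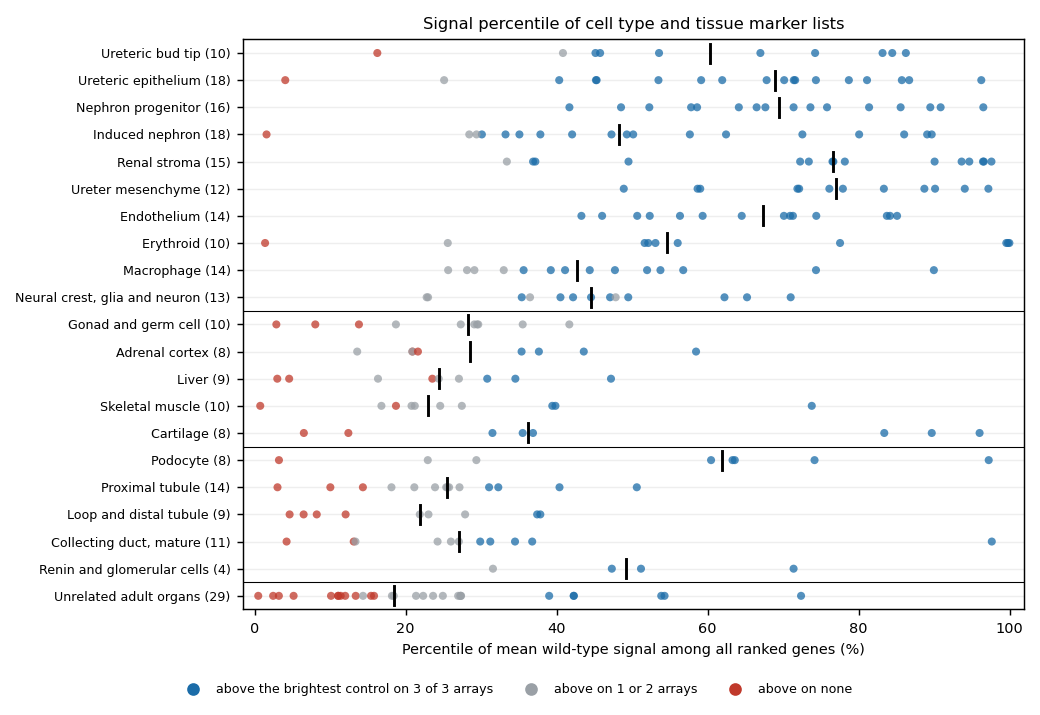
Each point is a gene of a marker list, placed by the percentile of its mean wild-type signal among all 18193 genes, with the same colours and median bars as in the plot of regulators to matrix genes. Horizontal lines separate the cell types of the young kidney (top), neighbouring tissues, later nephron segments and genes of unrelated adult organs (bottom). The ureter mesenchyme, endothelial and nephron progenitor lists hold blue points only, and most points of the unrelated organ list lie left of percentile 40.

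Genes of the mature nephron were mostly at or under the control. Of 46 measured genes 19 (41.3%) were above, 17 mixed and 10 below. Proximal tubule genes had 4 of 14 above. Slc34a1, the phosphate transporter, read 48.9, 74.4 and 107, and Slc5a2, the glucose transporter, read 1165, 1225 and 1153, above on every array. Loop and distal tubule genes had 2 of 9 above, and none at 2 times the control. Umod, uromodulin, read 83.5, 152 and 56.1. Of 8 podocyte genes 5 (62.5%) were above, near the 67.5% of all genes. Nphs1, the slit diaphragm protein nephrin, read 30.6, 16.6 and 7.6, below the control. Podxl, podocalyxin, read 9742, 2591 and 4526, highest on array 1, and endothelium also makes it. Of 11 collecting duct genes 5 were above, and the water channel Aqp2 read 225, 139.8 and 147. The brightest was Hsd11b2, the enzyme that inactivates glucocorticoids, at 28445, 35131 and 34175 and percentile 97.6.

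Markers of tissues next to the kidney were mostly dim but differed between arrays. Of 10 gonad and germ cell genes, none was above the control on 3 of 3 arrays. With array 1 left out 1 gene was above, and with array 2 left out 2 were. Counted per array, 6 were above on array 1, 1 on array 2 and 2 on array 3, and their summed signal was 3372.5, 739 and 740.3. Gata4, a factor of gonad and heart, read 1389.6, 103 and 47.6, although its second probe set was below the control on every array at 50.2, 49.1 and 55.7. Lhx9, of the gonadal epithelium, read 715, 61.2 and 56, and 2 of its other 3 probe sets were also above on array 1 alone. Nr5a1, the steroidogenic factor, read 262, 91.7 and 67.3, and its second probe set, at 261, 6.5 and 78.1, was above on array 1 alone. Of the defining germ cell genes, Dazl and Pou5f1 were below the control on every array, and Ddx4 was mixed at 258, 86.9 and 154. Amh, the Sertoli cell hormone, was below as well. Sry, the Y-linked testis switch, read 42.3, 196 and 246, and its second probe set read 212, 40.7 and 223. Its probe sets thus did not follow the 3 other Y-linked genes.

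Skeletal muscle markers had 3 of 10 above, with a summed signal of 14973, 1519.6 and 4366.4 on arrays 1, 2 and 3. Actc1, cardiac actin, read 13072, 464 and 3012 and made up most of the sum on arrays 1 and 3, but not on array 2. Myod1, the muscle-determining factor, read 203, 4.4 and 3, and Myf6 was below the control on every array. Liver genes had 3 of 9 above, with Alb, albumin, at 305, 247 and 212. Adrenal cortex genes had 4 of 8 above, and Mc2r, the ACTH receptor, read 1305, 2531 and 2501. Cartilage genes had 6 of 8 above, of which Col2a1 read 6807, 10145 and 11901, and 3 were above 2 times the control. The part of neighbouring tissue in the values of any array was not tested.

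Genes of unrelated adult organs were mostly mixed or below the control. Of 29 genes such as caseins, insulin, pituitary hormones and lens crystallins, 6 (20.7%) were above it, against 67.5% of all genes. The list was chosen with earlier results of these data known, so its share is no error rate of the gauge. These 6 were Sst, Cpa1, Pomc, Cryab, Prm1 and Lor. Sst, the peptide somatostatin, read 5557, 3526 and 6130.1, and Cpa1, a pancreatic carboxypeptidase, read 1062, 2047 and 1615. Prm1, a sperm protamine, read 696, 500.2 and 435. The number above was 7 on array 1, 10 on array 2 and 15 on array 3, in the order in which the control itself dropped.

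**Figure D5:**
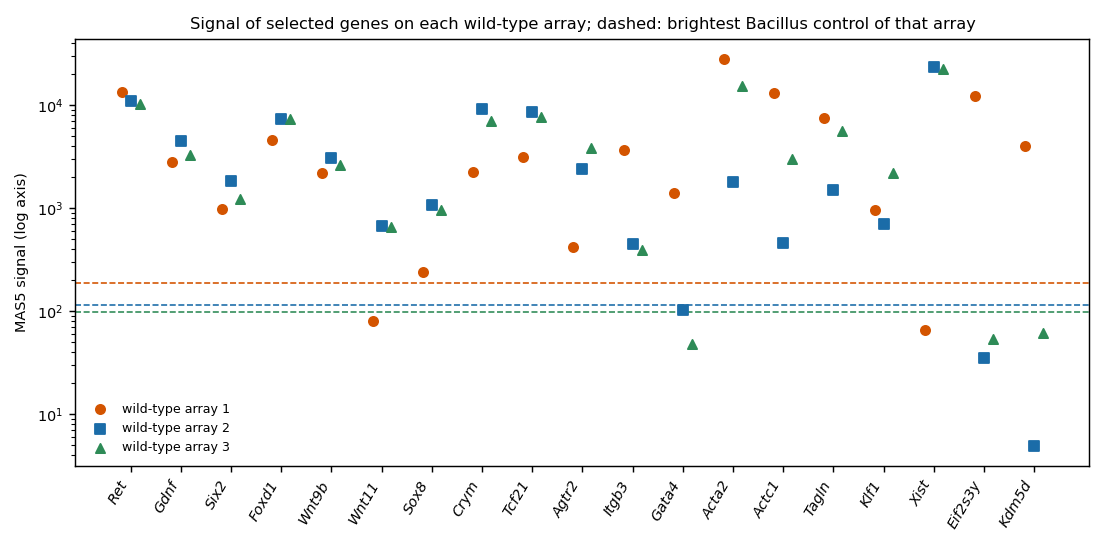
Signal on each wild-type array, on a log axis, for Ret, other markers of the young kidney and genes that differed between arrays. Circles, squares and triangles are arrays 1, 2 and 3, and dashed lines in the same colours are the brightest Bacillus controls (187, 115 and 97.2). Array 1 lies apart for Agtr2, Itgb3, Gata4 and the sex-linked genes, and array 2 is lowest for Acta2, Actc1 and Tagln.

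Few genes differed at least 2-fold between 1 array and both others. Of 12283 genes above the control, 242 (1.97%) were at least 2-fold higher on array 1 and 239 (1.95%) at least 2-fold lower. For array 2 these numbers were 5 (0.0407%) and 61 (0.497%), and for array 3 they were 25 (0.204%) and 46 (0.375%). Among the 513 listed genes above the control, 33 were high and 10 low on array 1, 7 were low on array 2, and 1 was high and 3 low on array 3. At 3-fold, 28 genes were high and 32 low on array 1. With arrays centred on their medians, 91 were high and 586 low on array 1, so the balance of directions rests on the scaling.

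Clone names left out, the 5 genes with the largest excess on array 1 over both others began with Itgb3. It was followed by Hand1, a factor of heart and lateral mesoderm, at 1151, 154 and 179, and by Cavin2, a caveola protein, at 3315, 339.5 and 554. Upk3b, a mesothelial uroplakin, read 1469.9, 127 and 247, and Myl7, the atrial myosin light chain, read 911, 158 and 149.5. Among listed genes high on array 1 were Rspo2, Amhr2 (the receptor of Amh), Postn, Tnc, Hspg2 and the endothelial genes Kdr, Esam and Cldn5. The second probe set of Amhr2 read 706, 205 and 254, in the same order.

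With clone names again left out, the 5 genes with the largest deficit on array 1 were Nfia, Pdia4, Irf2bp2, Sdc4 and Agtr2. Nfia, a nuclear factor of renal and ureter development, read 553, 5192 and 8216. Among listed genes, Sox8 of the bud tip and Crym of the cap mesenchyme were low there too, Crym at 2239.9, 9263 and 6977, as was the stromal Tcf21. The summed signal of the renal stroma list went the other way, at 194033, 162135 and 175575 on arrays 1, 2 and 3. That of the ureter mesenchyme list did so too, at 140739, 94881 and 118467. Such sums rest mostly on the brightest members. The median signal of the stroma list was nearly level, at 7205, 7292 and 7315. For the ureter mesenchyme list the median was 7052, 5170 and 7134, so neither median was highest on array 1. Mgp, a matrix protein that inhibits calcification, read 1341, 3519 and 4279, and Peg10, an imprinted gene, read 5163, 15692 and 17263. The bud tip and nephron progenitor lists had their lowest summed signal on array 1. For nephron progenitors it was 102864 on array 1, 124542 on array 2 and 105791 on array 3, so arrays 1 and 3 were close. For bud tip markers it was 40148, 47616 and 44398. The endothelial sum was 75888, 48904 and 59156, and the erythroid sum 211140.0, 170801 and 202444.

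On array 2 the 5 genes with the largest deficit, clone names left out, were Acta2, Actc1, Rgs18, Alox12 and Tagln. Acta2, smooth muscle actin, read 28187, 1815 and 15254, and Tagln, transgelin, read 7585, 1508 and 5644. Of the 10 genes with the largest SD, Actc1 had the largest ratio of highest to lowest array, 28.2, and Acta2 had a ratio of 15.5. The other 2 probe sets of Acta2 were below the control on every array. Myocd, the co-activator of smooth muscle genes, read 1444, 723 and 883, lowest on array 2 by a smaller margin. Fmod, Thbs1, Eng and Slc4a1 were the other listed genes low on array 2. On array 3, B3galt6, an enzyme of proteoglycan linkage, had the largest excess of the genes without clone names, at 556, 798 and 6646. Klf1 was the listed gene that stood high there, and Fos, an early response gene, read 2351, 3027 and 641, low on that array.

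The members nearest the control show how much the call rests on it. Just above on every array were Hoxa7, Dll4, Irx5, Matn1 and Fgf18, whose lowest array stood between 1.02 and 1.13 times its control. Just below were Mmp7, Lif, Nrg1, Eomes and Matn4, whose highest array stood between 0.904 and 0.958 times it. Of 431 members with several probe sets, 331 were above by the brightest. Of these, 153 had all probe sets above and 101 had at least 1 below on every array, so a call of above rests on the probe set chosen for many genes.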

How the data were processed

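Gene expression was measured on Affymetrix Mouse Genome 430 2.0 arrays. The deposited values are linear MAS5 intensities, 1 per probe set, per the submitters' processing notes. The software version and the scaling target were not stated, and detection calls were not used. The series' design text names NuGEn Ovation amplification, whereas the labels' protocol names the standard Affymetrix cRNA method, so the method used is unsettled. Probe sets were named through GEO's platform annotation, with symbols updated by gene ID to RefSeq for 99.4% of the 34958 probe sets with a single symbol. Control probe sets (64) were left out of the ranking. Each gene was represented by its brightest probe set by mean signal. Spread was the SD of log2(signal + 16) over the 3 arrays. E. coli and phage controls, which are spiked in, were not used as background. The number of arrays limits the precision, no test between groups was made, and the counting was checked on simulated data.

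Members and the 67 gene lists were chosen with earlier results of these data known. By rule, the genes to name were drawn from Ret, the 20 brightest genes, the 5 brightest, mixed and below-control members of each list, genes apart on 1 array, the 10 most variable genes and the 5 members on each side of the control. Genes with clone names were counted and not named. Not every gene the rule allows was named, and the choice among them was made with values known. Other members, such as Cited1, Osr1, Wnt4 and Fgf9, were named for their known role after their values were seen. For promoters, the restriction to protein-coding genes on the chromosomes where at least 75% of them had a sequence was chosen after seeing the data. Python 3.11.15, pandas 2.3.3 and numpy 2.4.6 were used.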

Additional observations from a re-analysis of the deposited data

Results flagged for a closer look

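Signal was also present in probe sets that the ranking did not use. Of 932 probe sets annotated to several genes, 589 (63.2%) were above the brightest Bacillus control on 3 of 3 wild-type arrays. Of 9160 probe sets with no gene symbol, 2725 (29.7%) were above it. Both numbers were picked out because they are signals in data outside the ranking, and the genes behind them were not analysed here. Among the former were the globin probe sets shared by Hba-a1 and Hba-a2.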

How the results depend on the processing

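No paired analysis was possible because only wild-type arrays were described and no groups were compared. Against 12283 genes above the control, a gauge set at the dimmest spiked bioB control gave 4458. Against 3462 genes below, a gauge of 2 times the control gave 5544 and bioB gave 12540. List members above numbered 513, and 179 with bioB, which is itself well over background. Calls of a gene apart on 1 array numbered 618, and 76 at 3-fold. A gene could be called for more than 1 array, as Actc1 was, so these count calls and not genes. The median SD of 0.23 ranged from 0.12, without array 1, to 0.24 when each array was left out. The median CpG ratio of genes above the control, 0.752, was 0.747 with the 95th percentile of the controls, 0.768 at 2 times the control and 0.758 with the median of a gene's probe sets. It ranged from 0.746 to 0.750 when each array was left out. The ratio of genes below, 0.237, was 0.276 at 2 times the control and 0.263 with the median of probe sets, and ranged from 0.244 to 0.250 when each array was left out. Without the restriction to protein-coding genes on well-covered chromosomes, the ratios were 0.753 and 0.245. The restriction and its removal were both chosen after seeing the data. The ratio was higher for genes above than for genes below in each of these, and mixed genes were not recomputed. Of the 67 lists, the count above moved for 11 at 2 times the control, for 60 with bioB, and for no list under quantile normalization or median centring. The median percentile moved for 43 lists with the median of a gene's probe sets, so percentiles rest on the choice of the brightest. With quantile normalization 11, and with a pseudocount of 64 in place of 16, 16 genes in place of 46 were low on array 3. The causes were not tested. Protein length, a planned property, was not run because no protein sequences were used here. Signal near the control limits all counts of dim genes.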
